A study of Mus musculus with 2 samples.

Results

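Ccl6, Ccl9, Ccl24, Retnla, Chil3, Ear2, Fn1, F13a1 and Fcna are 9 of the 32285 genes counted in both libraries. All encode secreted proteins that macrophages and their relatives make, and several are textbook markers of alternatively activated macrophages. The 9 genes were chosen by their symbols from earlier results on the same 2 libraries, so every value below is a description and none is a test. Cells came from digested mouse tumours, and magnetic beads selected those with the leukocyte antigen CD45. The control group is labelled only as control, and the other group received motolimod, a drug that activates the innate receptor TLR8. Each group has 5 mice and 1 droplet 3′ library. The labels used here do not give the tumour model, strain, age, dose or time, or whether mice were pooled. With 1 library per group there is no replicate check, and every interval below covers counting error only.

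Alternative activation is the state that macrophages enter when interleukin-4 or interleukin-13 engages Il4ra and activates the transcription factor Stat6. Retnla, Chil3 and, in mouse, several Ear ribonucleases and CC chemokines are classical products of that state. Ccl6 and Ccl9 are chemokines that bind the receptor Ccr1, and Ccl24 (eotaxin-2) attracts eosinophils through Ccr3. Retnla (resistin-like molecule alpha) and Chil3 (Ym1, a chitinase-like lectin) are secreted effectors of type 2 responses. Fn1 is fibronectin, F13a1 is the catalytic subunit of the transglutaminase factor XIII that crosslinks fibrin and fibronectin, and Fcna is ficolin A, a recognition molecule of the lectin pathway of complement.

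On GRCm38, all 9 are protein-coding genes. Ccl9 (chromosome 11, 83572919 to 83578636, minus strand) and Ccl6 (chromosome 11, 83587882 to 83593087, minus strand) lie 9245 bases apart. Ccl24 lies at 135569937 to 135573049 on chromosome 5, Retnla at 48842551 to 48844461 on chromosome 16, Chil3 at 106147554 to 106167564 on chromosome 3 and Ear2 at 44102654 to 44103534 on chromosome 14. Fn1 lies at 71585520 to 71653200 on chromosome 1, F13a1 at 36867178 to 37050244 on chromosome 13 and Fcna at 25624666 to 25628030 on chromosome 2. Chil3 shared 8.50% of the 91-base windows of its transcript ends with Chil4, and Ear2 shared 9.27% with Ear1, Ear10 and Ear-ps2. Chil4, Ear1 and Ear10 had 0 UMIs in the macrophage-gated cells of both libraries. The other 7 genes shared no such window with another gene. Ccl6, Ear2, Fn1, F13a1 and Fcna are overlapped by non-coding transcripts on the opposite strand.

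RefSeq promoter windows (GRCm38.p6) were found for 7 of the 9 genes. The Retnla window is shown because it holds, next to each other, a match to the STAT6 palindrome (TTC, 4 bases of any kind, GAA) and a match to the C/EBP sequence TTGCNNAA. The Retnla start site used here is that of RefSeq. The gene span given above begins earlier, at 48842551, so the last of the bases printed here lie within that span. Both matches were searched on both strands and are in capitals below, at -145 to -136 and -134 to -127 from the RefSeq start site, in the 150 bases before it (chr16:48842459-48842608, plus strand).
Retnla: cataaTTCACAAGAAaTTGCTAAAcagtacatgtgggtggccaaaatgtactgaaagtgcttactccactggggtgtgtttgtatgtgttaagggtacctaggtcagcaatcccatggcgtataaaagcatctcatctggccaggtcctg
The STAT6 palindrome occurred in 6.95% of all 32851 promoter windows, TTGCNNAA in 10.8%, and both in 0.840%. Among the 7 genes, Retnla was the only one with the STAT6 palindrome, and Ear2 was the only other with TTGCNNAA. The PU1 sequence GAGGAAGT was also searched and occurred in 3.20% of all windows. It matched in Retnla, at -198 to -191 and so outside the bases printed, and in F13a1, at 14 to 21. The Ccl6 and Ccl9 windows are shown because these neighbours had the most similar level patterns below among the pairs of chemokines. Their longest shared stretch is 13 bases and begins at different positions, -55 in Ccl6 and -14 in Ccl9. The length that other pairs of windows share was not computed, so no role is read from it. It is in capitals in the 100 bases before each start site (Ccl6 chr11:83593088-83593187 and Ccl9 chr11:83578637-83578736, both minus strand).
Ccl6: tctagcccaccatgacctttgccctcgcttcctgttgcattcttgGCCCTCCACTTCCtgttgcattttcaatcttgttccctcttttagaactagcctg
Ccl9: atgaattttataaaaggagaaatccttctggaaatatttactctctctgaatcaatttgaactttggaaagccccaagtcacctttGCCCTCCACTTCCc

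In control, 8099 barcodes carried 127609378 UMIs, and in motolimod 10037 barcodes carried 62057685. Filters on genes, UMIs and mitochondrial share kept 7484 and 9314 barcodes, with median depths of 14055 and 3742 UMIs. The libraries shared 94 kept barcode sequences. Cells were sorted into gates by summed marker genes per 10000 UMIs, and 816 control and 1024 motolimod barcodes that carried core genes of more than 1 lineage were removed. Macrophage-gated cells numbered 4003 and 3947, and all 9 general macrophage markers were detected in both. They were divided by leading markers into Cbr2 and Tppp3 resident-like cells (245 control and 1619 motolimod), Lyve1 and Cd209 perivascular-like cells (217 and 78), MHC class II high cells (1142 and 641), Mmp12 matrix-remodelling cells (965 and 588), Gpnmb and Cd36 lipid-laden cells (145 and 394), cycling macrophages (798 and 288), Cd72 and Vcam1 cells (107 and 71) and other macrophages (384 and 268). The state cut is a range and not a type: 17.0% of non-cycling control and 14.3% of motolimod macrophages lay near a border. Classical monocytes numbered 334 and 203, neutrophils high in Ccl3 and Ccl4 153 and 1712, other neutrophils 385 and 1104, and dendritic cells of the cDC1, cDC2 and migratory gates 107 and 45, 83 and 52, and 122 and 31. T cells (368 and 411), which should lack these genes, served as the measure of background RNA. That background was unevenly spread: 281 motolimod Retnla UMIs lay in 8 T cells and 1227 Ccl6 UMIs in 129. Whether it was free RNA or came from other cells in the droplets was not tested.

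The first question was where in the tumour these genes were expressed. Levels are CPM, the UMIs of a gene summed over the cells of a gate and scaled to a common total of the gate's UMIs. In the plot of levels by gate, F13a1, Fcna and Ccl6 share a high point in the perivascular-like gate, Chil3 is high in monocytes, and Ccl24 has its high point in the control Mmp12 gate.

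**Figure D1:**
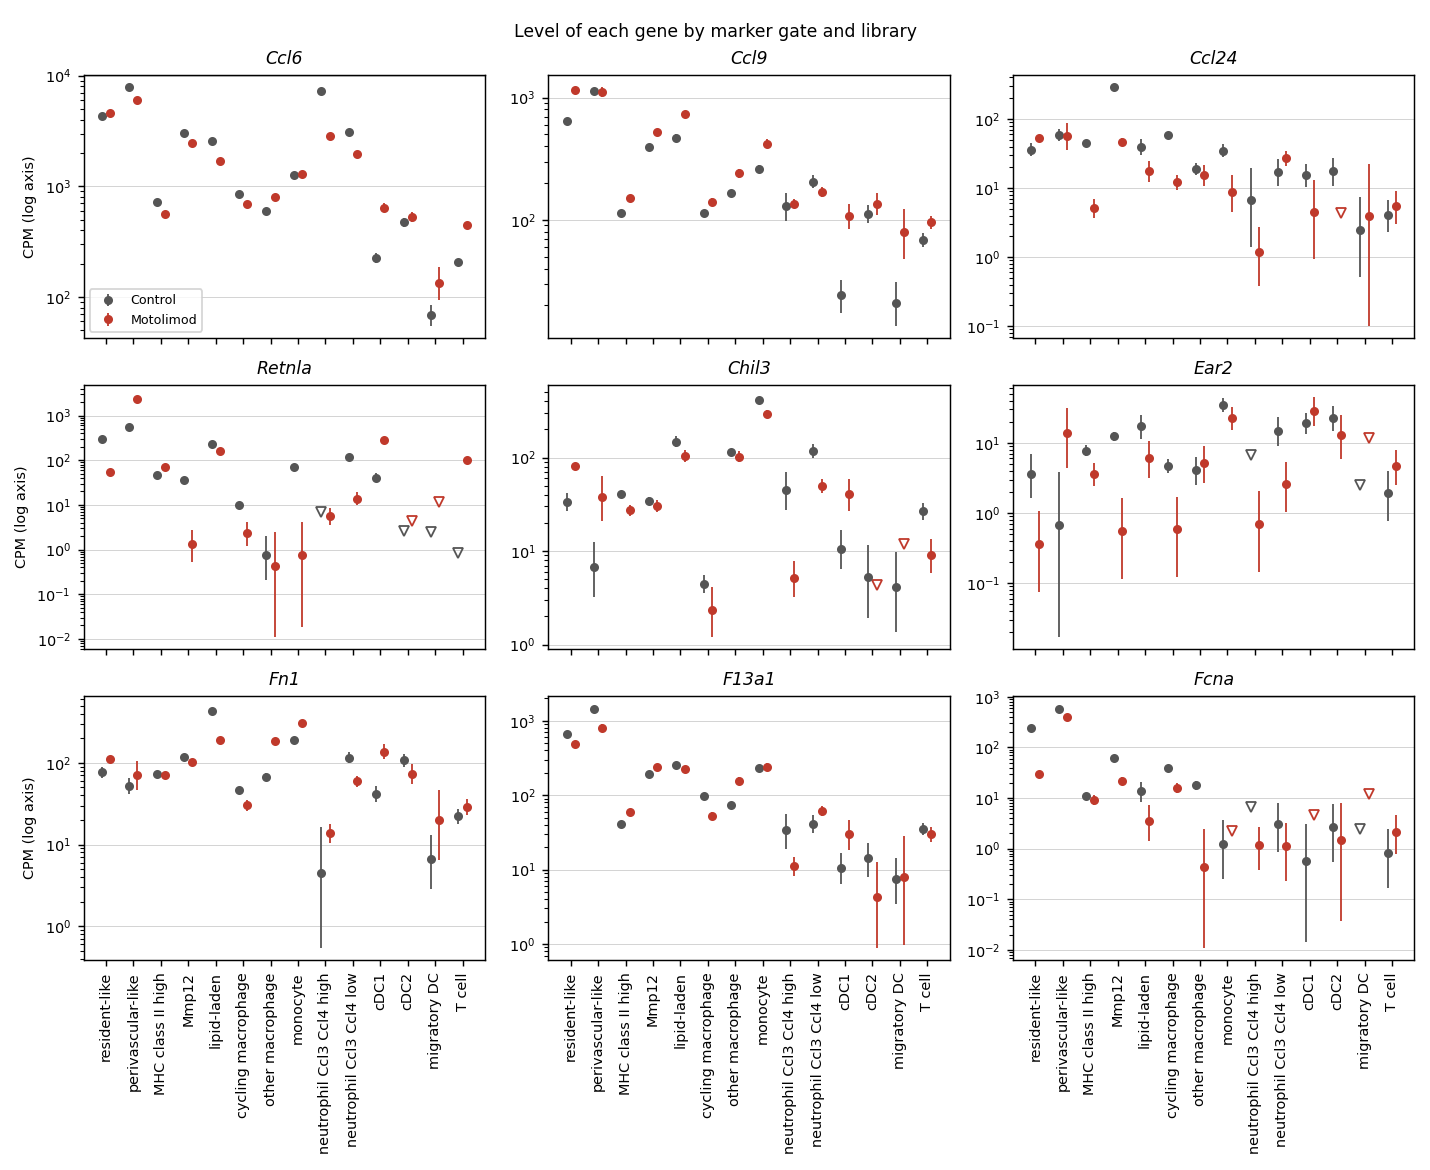
Level of each of the 9 genes (CPM, log axis) in 14 gates of the control (grey) and motolimod (red) libraries. Bars are 95% Poisson intervals, and open triangles mark gates with 0 UMIs, drawn at the level of 3 UMIs. F13a1 and Fcna peak in perivascular-like cells at 1423 and 563 CPM in control, and Chil3 peaks in monocytes at 414 CPM.

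Ccl6 was the most widely detected of the 9 genes. Its control level was 7835 CPM in perivascular-like macrophages, 7234 in neutrophils high in Ccl3 and Ccl4, 4299 in resident-like macrophages, 3077 in other neutrophils and 3034 in Mmp12 macrophages. It was 724 CPM in MHC class II high macrophages, 1264 in monocytes, 226 in cDC1 and 205 in T cells. In the motolimod library it was 5978 CPM in perivascular-like macrophages, 4619 in resident-like macrophages and 2850 in neutrophils high in Ccl3 and Ccl4, against 444 in T cells. Perivascular-like cells led in both libraries. After each cell was thinned to 1000 UMIs, 96.2% of control perivascular-like cells held a Ccl6 UMI and 9.07% of control T cells did (99.1% and 33.2% at their own depth).

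Ccl9, the neighbour of Ccl6, also had its highest control level in perivascular-like macrophages, 1142 CPM, followed by resident-like cells at 643 and lipid-laden cells at 469. In the motolimod library the resident-like level (1147 CPM, interval 1124 to 1171) and the perivascular-like level (1120 CPM, interval 1014 to 1233) did not differ beyond counting error. Neutrophils, which were rich in Ccl6, held Ccl9 at 129 and 136 CPM in the gate high in Ccl3 and Ccl4, against 68.6 and 96.2 CPM in T cells. The number of Ccl6 UMIs per Ccl9 UMI differed between cell types. It was 6.86 in control perivascular-like macrophages (interval 6.52 to 7.23), 7.72 in Mmp12 macrophages and 6.33 in MHC class II high macrophages, but 56.1 in neutrophils high in Ccl3 and Ccl4 (43.2 to 74.3) and 15 in other neutrophils. In the motolimod library it was 4.03 in resident-like macrophages, 2.30 in lipid-laden macrophages, 21.0 in neutrophils high in Ccl3 and Ccl4 (19.3 to 22.9) and 11.7 in other neutrophils. Control T cells had 2.98 and motolimod T cells 4.61, and the intervals of the neutrophil values do not overlap those of T cells. In each of the 8 macrophage gates and in monocytes the motolimod value was below the control value, with overlapping intervals in Cd72 and Vcam1 cells and in other macrophages.

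**Figure D2:**
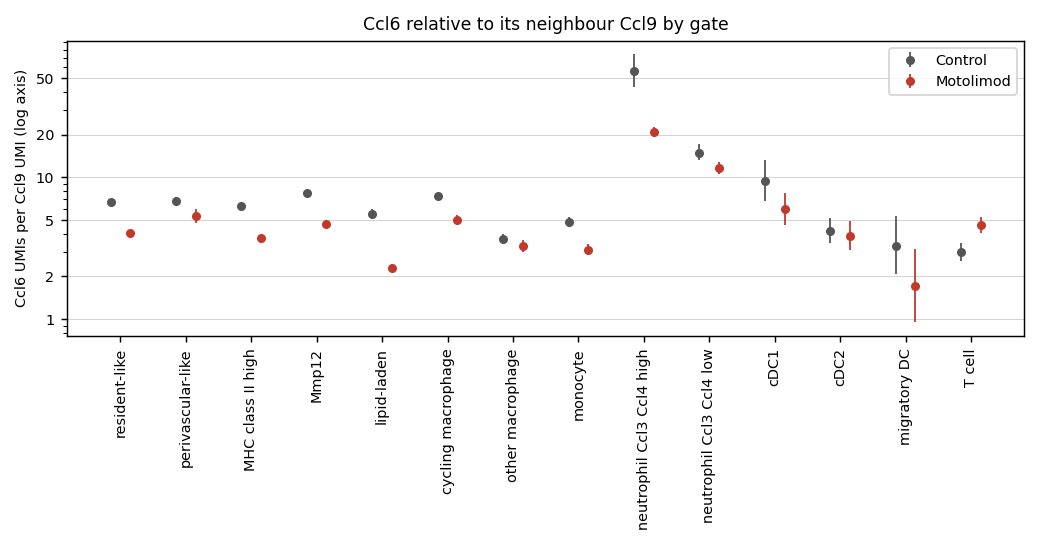
Ccl6 UMIs per Ccl9 UMI (log axis) by gate in the control (grey) and motolimod (red) libraries, with 95% binomial intervals. Neutrophils high in Ccl3 and Ccl4 stand at 56.1 and 21.0, above all macrophage gates.

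Ccl24 was concentrated in 1 macrophage state of the control library. Mmp12 macrophages held it at 287 CPM, and that gate carried 55.0% of all control Ccl24 UMIs. Cycling macrophages followed at 59.3 CPM, perivascular-like cells at 59.1 and MHC class II high cells at 45.0, and T cells stood at 4.10. Within these gates a minority of cells, those with at least 10 Ccl24 UMIs, held most of it in control. They were 82 of 965 Mmp12 cells (4101 of 4452 UMIs), 28 of 798 cycling cells (894 of 1073) and 14 of 1142 MHC class II high cells (672 of 787). In motolimod, 9 of 588 Mmp12 cells held 168 of 247 UMIs. In the motolimod library Mmp12 macrophages held 46.4 CPM, resident-like cells 53.9 and perivascular-like cells 57.3 (interval 35.5 to 87.7), and the intervals of these 3 gates overlapped. Ccr3, the receptor of Ccl24, was at 0.410 and 1.53 CPM in macrophage-gated cells and at most 10.9 CPM in any gate. Of the 5 eosinophil markers, Ccr3 among them, 3 and 2 were detected in macrophage-gated cells. Their summed level, which includes that of Ccr3, was 1.06 and 1.71 CPM. No gate was set for eosinophils, so these values do not show whether such cells were present.

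Ccr1, the receptor of Ccl6 and Ccl9, was highest in neutrophils. Its level was 1121 CPM in control and 906 in motolimod neutrophils high in Ccl3 and Ccl4, 702 and 786 in other neutrophils, 231 and 190.4 in monocytes, and 115 and 117 over all macrophage-gated cells.

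Retnla was carried by very few cells. Only 162 control and 151 motolimod cells had a UMI of it, of 7484 and 9314, and 10 and 6 cells held 50% of its UMIs. The 10 richest cells held 52.3% and 65.6%, and the richest cell of each library held 577 UMIs. By comparison the 10 richest cells held 2.88% and 3.18% of Ccl6 UMIs, 20.1% and 24.9% of Ccl24 UMIs and 9.97% and 11.5% of Chil3 UMIs. Retnla was highest in perivascular-like macrophages, at 561 CPM in control and 2411 in motolimod, where 12% and 30.7% of thinned cells held a UMI. Resident-like cells had 299.8 and 53.9 CPM, lipid-laden cells 226 and 165, monocytes 69.0 and 0.738, and cDC2 and migratory dendritic cells 0 UMIs in both libraries. Cells with at least 10 Retnla UMIs, 56 in control and 40 in motolimod, were spread over 11 and 8 gates besides the removed and ungated barcodes. T cells had 0 Retnla UMIs in control, which allows up to 0.820 CPM, and 281 UMIs in motolimod, of which 267 came from 3 cells.

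**Figure D3:**
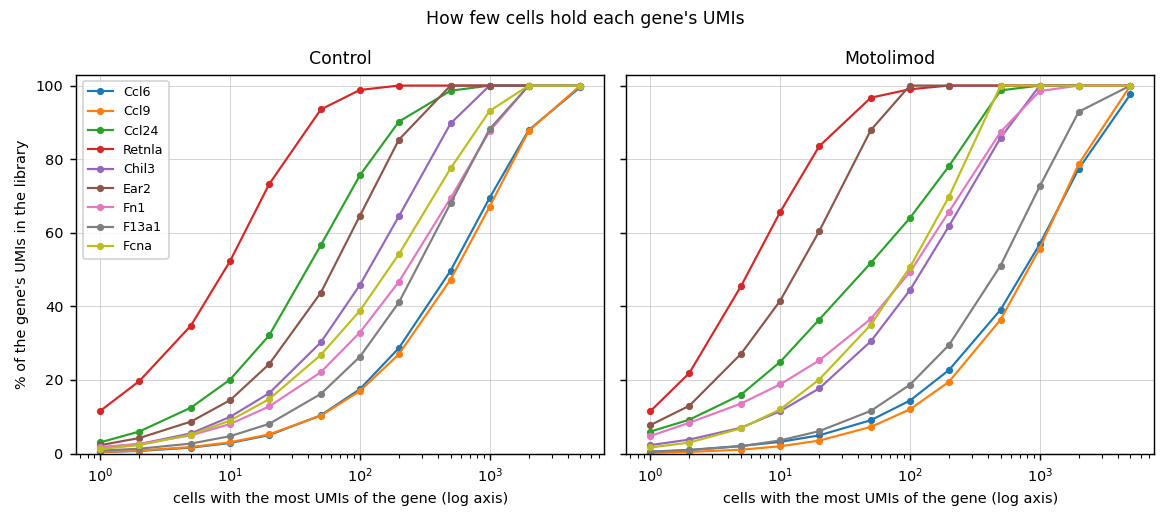
Cumulative percent of each gene's UMIs held by its richest cells (log axis) in the control (left) and motolimod (right) libraries. The Retnla curve passes 50% by 10 cells in both libraries, and the Ccl6 and Ccl9 curves need more than 500 cells.

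Chil3 was highest in monocytes in both libraries. It was at 414 CPM in control and 294 in motolimod monocytes, and 23.7% and 16.8% of thinned monocytes held a UMI, against 0.549% and 0.739% of T cells. Among macrophages lipid-laden cells led in control at 148 CPM, ahead of other macrophages at 115. In motolimod these gates had 104 and 102 CPM, with overlapping intervals. The share of thinned cells with a UMI was 7.75% and 5.53% in lipid-laden cells. In other macrophages it was 10.7% and 9.09%, with overlapping intervals in each library. Neutrophils low in Ccl3 and Ccl4 had 118 and 50.1 CPM. Perivascular-like cells, the peak of Ccl6, had only 6.80 CPM of Chil3 in control and 38.2 in motolimod. Ear2 was low everywhere, with 34.9 CPM in control monocytes (interval 27.9 to 43.3), 23.0 in cDC2 (15 to 33.6) and 19.0 in cDC1 (13.2 to 26.6), so that monocytes stood above cDC1 but not beyond the interval of cDC2. It had 22.9, 13 and 28.7 CPM in motolimod. T cells stood at 1.91 and 4.70 CPM. The cDC2 gate was led by more MHC class II genes than cDC2 markers, so its levels are of cells with those genes.

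The 3 genes of matrix, clotting and complement had different homes. Fn1 was highest in the few fibroblasts that passed the bead selection, at 1924 CPM (16 cells) and 2561 CPM (18 cells). Epithelial-gated cells, 761 in control and 84 in motolimod, held Fn1 at 81.6 and 89.2 CPM. They carried 21.2% of all control and 5.01% of all motolimod Fn1 UMIs. The largest share of a macrophage gate was 15.3% in control (Mmp12 cells) and 12.8% in motolimod (resident-like cells). At their own depth 75.7% and 76.2% of epithelial cells held an Fn1 UMI, and 8.02% and 4.76% after thinning. Among macrophages Fn1 was highest in lipid-laden cells in control (434 CPM). In motolimod, monocytes (305 CPM) exceeded lipid-laden (188) and other macrophages (184), which did not differ beyond their intervals. Fibroblast markers summed to 3.22 and 3.46 CPM in macrophage-gated cells. F13a1 was at 1423 CPM in control and 800.2 in motolimod perivascular-like cells, and at 672 and 487 in resident-like cells, against 35.2 and 29.7 in T cells. Fcna was at 563 and 393 CPM in perivascular-like cells, and at 242 and 29.5 in resident-like cells. Monocytes had 3 and 0 Fcna UMIs, and the 0 allows up to 2.21 CPM. The platelet markers, which bear on F13a1 because platelets carry factor XIII, summed to 6.20 and 21.5 CPM in macrophage-gated cells, where 4 and 2 of the 4 were detected. By gate, the platelet markers summed to 1.36 and 0 CPM in perivascular-like cells, 1.61 and 17.1 in resident-like cells and 3.87 and 147 in lipid-laden cells. Their part in the F13a1 levels was not tested.

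Members were detected together to different degrees in single macrophages. Among thinned control macrophages with an Fcna UMI, 48.5% (96 of 198) also held F13a1, against 11.6% of those without, and in motolimod 34 of 85 did, against 20.6%. Retnla UMIs lay almost wholly in cells with Ccl6: 52 of 53 control and 44 of 45 motolimod thinned cells with Retnla held Ccl6, against 47.6% and 63.0% of cells without Retnla. These shares pool all macrophage gates. Of the cells with Retnla, 25 and 23 were perivascular-like, where 96.2% and 93.3% of all thinned cells held Ccl6. Of the cells with Fcna, 73 and 21 were perivascular-like, where 71.3% and 52.0% held F13a1. Joint detection within single gates was not examined. Chil3 and Fcna were rarely together, in 2 of 198 control and 1 of 85 motolimod cells with Fcna, against 3.82% and 4.81% of cells without it. Of the 53 control cells with Retnla, 0 held Chil3, and 1 of 45 did in motolimod, against 3.73% and 4.76% of cells without Retnla. At their own depth 3 of 91 and 6 of 80 cells with Retnla held Chil3, against 12.5% and 14.3% of cells without it. These are few cells, and no interval was computed for the shares.

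Across 35 profiles of gate and library, which share depth and free RNA within a library, the level of Ccl6 followed that of Ccl9 (Pearson r = 0.86 of log2 values with 10 CPM added), and F13a1 followed Ccl9 (0.87), Ccl6 (0.72) and Fcna (0.72). Outside the 9 genes and the markers, genes among the most like Ccl6 were Wfdc17 (0.89) and Sdcbp (0.86), and those most like Ccl9 were Sem1 (0.86), Zeb2 (0.86) and Dhrs3 (0.84). Those most like Ccl24 were Trf (0.72), Prxl2b (0.70) and Tnfsf13 (0.69). For Retnla they were Cd5l (0.71), Ms4a8a (0.70) and Stard8 (0.69), for Chil3 Apoc2 (0.76), Thbs1 (0.74) and Ifi213 (0.72), and for Ear2 Ifi205 (0.77), Rnase6 (0.76) and Ahr (0.74). For Fn1 they were Mcub (0.74), Eps8 (0.72) and Dynll1 (0.71), for F13a1 Ms4a8a (0.90), Serpinb8 (0.88) and Osbpl11 (0.86), and for Fcna Gas6 (0.93), Npl (0.91) and Hsbp1 (0.90).

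The second question was how the levels compared between the motolimod and control libraries. A ratio of at least 1.5 in either direction is called higher or lower below, for genes of at least 5 CPM in 1 library. Over all macrophage-gated cells 1 of the 9 genes was higher with motolimod and 3 were lower, where 8.72% of all genes of at least 20 CPM were higher and 5.21% lower (9.40% and 6.20% of genes of at least 5 CPM). In each gate below, the share of genes of at least 20 CPM is followed in parentheses by that of genes of at least 5 CPM. Ccl9 was at 239 CPM in control and 522 in motolimod (ratio 2.19, interval 2.14 to 2.24). Ccl24 went from 105 to 27.7 CPM (0.264, 0.246 to 0.283), Fcna from 53.9 to 21.3 (0.395, 0.363 to 0.429) and Ear2 from 7.46 to 2.09 (0.280, 0.213 to 0.362). The motolimod Ear2 level was below the 4.70 CPM of T cells. Ccl6 (1651 and 2089 CPM, ratio 1.27), Retnla (57.5 and 70.3, 1.22), Chil3 (35.6 and 48.5, 1.36), Fn1 (82.8 and 94.6, 1.14) and F13a1 (158 and 223, 1.41) lay within 1.5-fold. Without the 10 richest cells in each library the Retnla ratio was 0.675.

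The macrophage mix differed between the libraries: resident-like cells made up 6.12% of control and 41.0% of motolimod macrophages. With both libraries weighted to the control mix, the Ccl9 ratio was 1.35, so none of the 9 was then higher. The Ccl6, Chil3 and F13a1 ratios moved by over 1.5 times to 0.841, 0.896 and 0.922, below 1, and the Fn1 ratio was 0.965. Ccl24 (0.203), Ear2 (0.296) and Fcna (0.433) stayed lower.

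In the plot of ratios by gate, Ccl24 and Fcna lie left of 1 in most macrophage gates and Ccl9 right of it.

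**Figure D4:**
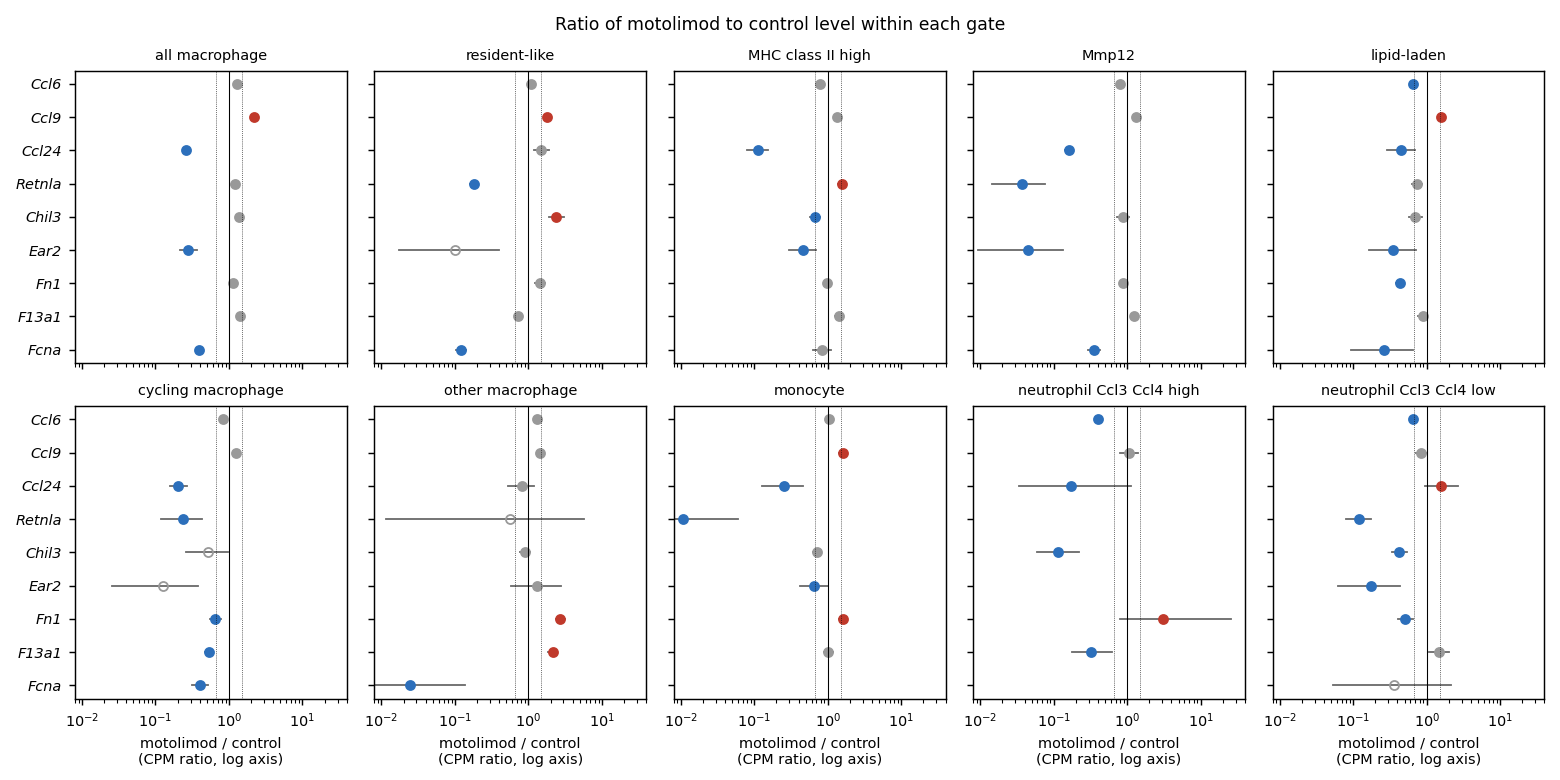
Ratio of motolimod to control CPM (log axis) of the 9 genes over all macrophage-gated cells and within 9 gates, with 95% counting intervals, cut at the edge of the panel. Red points are at least 1.5-fold higher, blue at least 1.5-fold lower, grey within 1.5-fold, and open points below 5 CPM in both libraries; genes with 0 UMIs in a library are not drawn. Ccl24 is lower by over 1.5-fold in 4 of the 6 macrophage gates drawn.

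Within resident-like macrophages 2 of the 9 genes were higher and 2 lower, where 12.6% and 12.5% of genes were (14.0% and 16%). Ccl9 was at 643 and 1147 CPM (1.79) and Chil3 at 33.7 and 81.4 (2.41, interval 1.92 to 3.06). With cells thinned to 1000 UMIs the Ccl9 and Chil3 ratios were 1.33 and 1.34, as a mean over cells the Ccl9 ratio was 1.26, and without its 10 richest cells the Chil3 ratio was 9.58. Fcna was at 242 and 29.5 CPM (0.122, 0.104 to 0.141) and Retnla at 299.8 and 53.9 (0.180). Of the 747 control Retnla UMIs 719 lay in 8 cells, and without its 10 richest cells in each library the Retnla ratio was 0.791. Ccl24 (36.1 and 53.9 CPM, 1.49) was just inside the 1.5-fold limit. Fn1 (76.3 and 111 CPM, 1.45), Ccl6 (1.07) and F13a1 (0.724) also lay within it, and Ear2 was under 5 CPM. The perivascular markers summed to 149 CPM in control and 37.1 in motolimod resident-like cells, MHC class II high markers to 9117 and 2983, and classical monocyte markers to 914 and 2008. Their part in these ratios was not tested.

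In MHC class II high macrophages 1 gene was higher and 3 lower, against 4.92% and 1.63% of genes (6.97% and 2.39%). Ccl24 was at 45.0 and 5.09 CPM (0.113, 0.0804 to 0.155), Ear2 at 7.78 and 3.60 (0.462) and Chil3 at 41.1 and 27.3 (0.665, at the limit). The higher gene was Retnla, at 47.0 and 72.3 CPM, but 577 of its 583 motolimod UMIs came from 1 cell. Under a stricter cell filter its ratio was 0.0159, and with gate thresholds 1.5 times as high 0.0178. The Chil3 ratio reached 0.696 under other settings, and the motolimod levels of Ear2 and Ccl24 were below those of T cells (4.70 and 5.42 CPM). Ccl6 (0.779), Ccl9 (1.32), Fn1 (0.975), F13a1 (1.43) and Fcna (0.836) lay within 1.5-fold.

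In Mmp12 macrophages, the control home of Ccl24, 0 of the 9 genes were higher and 4 lower, against 7.55% and 4.84% of genes (9.21% and 6.56%). Ccl24 was at 287 CPM in control (interval 279 to 296) and 46.4 in motolimod (40.8 to 52.5), a ratio of 0.161, and 9.25% and 1.91% of thinned cells held a UMI. Fcna was at 62.3 and 22.1 CPM (0.355), Ear2 at 12.5 and 0.563 (0.0452, from 193 and 3 UMIs) and Retnla at 36.0 and 1.31 (0.0365, from 557 and 7 UMIs, 533 of the 557 in 3 cells). Ccl6 (0.809), Ccl9 (1.33), Chil3 (0.875), Fn1 (0.868) and F13a1 (1.23) lay within 1.5-fold. Motolimod Ear2 was below its T cell level. The Mmp12 marker sum that defines the gate was 6008 and 6203 CPM, while MHC class II high markers were at 13543 and 8255.

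In lipid-laden macrophages 1 gene was higher and 5 lower, against 18.1% and 13.4% of genes (20.7% and 15.9%). Ccl9 was at 469 and 732 CPM (1.56). Fn1 was at 434 and 188 (0.433, 0.381 to 0.493), Ccl6 at 2579 and 1685 (0.654), Ccl24 at 62 and 35 UMIs (0.447), Ear2 at 17.4 and 6.12 (0.352) and Fcna at 13.5 and 3.57 (0.264, from 21 and 7 UMIs). Retnla (226 and 165 CPM, 0.733), Chil3 (0.702) and F13a1 (0.878) lay within 1.5-fold, the Retnla values coming almost wholly from 3 control and 2 motolimod cells. The Fn1 share of thinned cells was 21.1% and 8.16%. Under other settings the ratios of Ccl9, Ccl6 and Ccl24 came within 1.5-fold, at 1.46, 0.810 and 0.841.

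In cycling macrophages 0 genes were higher and 5 lower, against 4.38% and 2.08% of genes (6.47% and 3.26%). Ccl24 was at 59.3 and 12.1 CPM (0.205), Fcna at 38.4 and 15.7 (0.408), F13a1 at 97.8 and 52.5 (0.537), Fn1 at 46.1 and 30.2 (0.654) and Retnla at 9.90 and 2.35 (0.238, 175 of its 179 control UMIs in 2 cells). Ccl6 (0.825) and Ccl9 (1.23) lay within 1.5-fold, and Chil3 and Ear2 were under 5 CPM. The F13a1 and Fn1 ratios came within 1.5-fold under other settings, at 0.762 and 0.704. In other macrophages 2 were higher and 1 lower, against 9.26% and 6.18% of genes (11.4% and 9.79%). They were Fn1 (67.3 and 184 CPM, 2.73), F13a1 (73.1 and 156, 2.14) and Fcna (18.0 and 0.437, from 93 UMIs and 1 UMI, ratio 0.0242 with interval 0.000607 to 0.138). Ccl6 (1.31), Ccl9 (1.46), Ccl24 (0.813), Chil3 (0.892) and Ear2 (1.29) lay within 1.5-fold, and Retnla was under 5 CPM. Classical monocyte markers summed to 1242 and 2350 CPM in these cells and neutrophil markers to 425 and 156, and their part in the Fn1 and F13a1 ratios was not tested. The gate was led by Ctsk, Mt3, Acp5 and Mmp9, which osteoclasts also express. Mmp9 counts in the neutrophil marker sum above, although the neutrophil gate was set without it.

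In monocytes 2 genes were higher and 3 lower, against 10.4% and 6.64% of genes (15.6% and 9.26%). Ccl9 was at 260.4 and 419.9 CPM (1.61, 1.44 to 1.81) and Fn1 at 190.5 and 305 (1.60). Ccl24 was at 34.9 and 8.86 CPM (0.253), Ear2 at 34.9 and 22.9 (0.655, 0.419 to 0.999) and Retnla at 69.0 and 0.738. The Retnla values rest on 166 UMIs, 165 of them in 2 cells, against 1 UMI (ratio 0.0107, 0.000269 to 0.0604). Chil3, which was higher in monocytes than in any other gate, was at 414 and 294 CPM (0.709), within 1.5-fold. Ccl6 (1.03) and F13a1 (1.02) also lay within it, and Fcna was under 5 CPM. Under other settings the Fn1 and Ear2 ratios came within 1.5-fold, at 1.35 and 0.681.

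In neutrophils high in Ccl3 and Ccl4, 1 gene was higher and 4 lower, against 28.3% and 18.1% of genes (33.6% and 20.9%). Ccl6, the member neutrophils carried at a high level, was at 7234 CPM in control (interval 6986 to 7489) and 2850 in motolimod (2800 to 2902), a ratio of 0.394, and 84.8% and 57.2% of thinned cells held a UMI. The control value comes from 153 cells. Chil3 was at 45.2 and 5.15 CPM (0.114) and F13a1 at 33.9 and 11 (0.324, from 15 and 47 UMIs). The motolimod Chil3 level and both F13a1 levels were below those of T cells and are read as background. The Fn1 ratio of 3.05 rests on 2 control UMIs (interval 0.808 to 25.8) and the Ccl24 ratio of 0.172 on 3 and 5 UMIs (0.0336 to 1.11), so neither differs beyond counting error. Ccl9 (1.05) lay within 1.5-fold, and Retnla, Ear2 and Fcna had 0 control UMIs. In other neutrophils 1 gene was higher and 5 lower, against 18.2% and 14.0% of genes (20.4% and 19.3%). Ccl6 was at 3077 and 1975 CPM (0.642), Chil3 at 118 and 50.1 (0.424), Fn1 at 116 and 59.4 (0.510), Ear2 at 14.8 and 2.62 (0.176) and Retnla at 116 and 13.8 (0.120, the control value from 148 UMIs of which 147 lay in 2 cells). Ccl24, at 17.2 and 26.9 CPM, had a ratio of 1.57 with an interval of 0.959 to 2.65. Ccl9 (0.825) and F13a1 (1.47) lay within 1.5-fold, and Fcna was under 5 CPM. Under other settings the Ccl6 and Fn1 ratios came within 1.5-fold, at 0.749 and 0.704. Krt14, a keratin, was among the leading genes of that gate.

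In T cells, 1 gene was higher and 1 lower, against 11.4% and 6.27% of genes (16% and 8.15%). Ccl6 was at 205 and 444 CPM (2.17) and Chil3 at 26.8 and 9.04 (0.338). Ccl9 (1.40), Ccl24 (1.32), Fn1 (1.31) and F13a1 (0.842) lay within 1.5-fold, and Ear2 and Fcna were under 5 CPM. With droplets of more than 1 lineage kept the Ccl6 ratio was 1.13. These values are read as background. Perivascular-like and dendritic gates had under 100 cells in the motolimod library and are given as levels alone. In perivascular-like cells Ccl6 was at 7835 and 5978 CPM, F13a1 at 1423 and 800.2, Fcna at 563 and 393 and Retnla at 561 and 2411, 11 of the 78 motolimod cells holding 823 of the 883 Retnla UMIs. In cDC1 Ccl6 was at 226 and 642 CPM and Fn1 at 42.0 and 137.

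Genes of the same pathways, taken from lists written down with earlier results known, gave a mixed picture over all macrophage-gated cells, where the median log2 ratio of all genes was 0.03 and, of genes of at least 5 CPM, 9.40% were higher and 6.20% lower. Of 16 genes of interleukin-4 and STAT6 activation with at least 5 CPM, 3 were higher and 2 lower, with a median of 0.19. Mgl2, a lectin that interleukin-4 induces, was at 137 and 34.4 CPM, a ratio of 0.251. In log2 ratios from here on, Klf4 was at 117 and 189 (0.70), Egr2 at 34.6 and 52.6 (0.60) and Mrc1, the mannose receptor, at 205 and 301 (0.55). The ratios of all these lists were not weighted to the control mix of gates. Within gates, Mrc1 was at 567 and 519 CPM in resident-like cells and at 284 and 423 in Mmp12 cells. Arg1, arginase 1, was at 470.4 and 515 CPM and Stat6 itself at 53.7 and 73.4, both within 1.5-fold.

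Of 10 receptors and related chemokines 5 were higher and 1 lower, with a median of 0.58. Ccr2, the receptor that brings monocytes into tissue, was at 65.2 and 214 CPM (1.72), Ccl3 at 129.6 and 295 (1.19), Ccl5 at 124 and 277 (1.16) and Ccl12, a monocyte chemoattractant, at 1034 and 560.2 (-0.88). Of 5 ribonuclease relatives 2 were higher, Rnaset2a (30.1 and 57.2 CPM, 0.92) and Rnaset2b (47.7 and 78.4, 0.72), which are near-identical genes and can share reads. Their median was 0.39. Rnase4 (0.39) and Ang (0.37) were within 1.5-fold.

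None of the 9 resistin-like and chitinase-like relatives reached 5 CPM in macrophage-gated cells. Of the ficolin and lectin pathway only C3 (59.3 and 69.3 CPM, 0.22) and C4b (30.6 and 35.8, 0.22) did, both within 1.5-fold. Of 11 genes around fibronectin 1 was higher and 3 were lower, with a median of 0.14. Plau, the urokinase protease, was at 149.6 and 71.3 CPM (-1.07), its receptor Plaur at 354 and 194 (-0.87), the fibronectin receptor subunit Itga5 at 36.7 and 56.5 (0.62) and Itga4 at 42.4 and 60.8 (0.52).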

How the data were processed

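The authors deposited a matrix of UMI counts for each library, whole numbers that had not been normalized, per the file headers. Reads were processed by the authors with Cell Ranger on mm10 (5.0.1 per the submitters' processing notes, 7.1.0 per the file headers); the intron setting is not given in the sources used here. Barcodes with at least 300 genes, 800 UMIs and at most 10% mitochondrial UMIs were kept. Gates use summed markers per 10000 UMIs, with thresholds set after the data were seen: macrophage 30, neutrophil 25 (without Mmp9), monocyte 20, T cell 5, epithelial 3, fibroblast 10, Ccl3 plus Ccl4 100. A macrophage state needed a log2 score of 1.0 over the macrophage median. Barcodes with 100 immunoglobulin UMIs per 10000 were left ungated. Droplets passing 2 lineages were removed as likely doublets; no doublet caller was run.

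The members and lists were chosen with earlier results of these data known. The text names all members in each gate with at least 100 cells per library, up to 4 genes per list of at least 20 CPM with the largest ratios, Arg1, Stat6, Ccr1 and Ccr3 (added after seeing the values), and the 3 most alike genes per member reaching 100 CPM. One gene alike to Ccl6 is not reported here. Clec7a of the interleukin-4 list was not analysed here.

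Levels are UMIs summed per gate, as CPM with exact 95% Poisson intervals; ratios have conditional binomial intervals. A count of 0 was given a limit of 3 counts. These cover counting error only, since 1 library per group allows no test. Shares of cells were computed after thinning to 1000 UMIs, which left out shallower cells (35 control and 102 motolimod macrophages). On simulated data for all macrophages (5226 genes), 50 of 50 genes changed 2-fold and 0 of 5026 unchanged genes passed 1.5-fold. The simulation started from the summed control counts and holds no differences between mice, libraries or gate mixes. It therefore gives no rate of false calls between the 2 libraries. Alternatives covered mixed droplets, weighting of cells, thinning, filters, scaling, gate mix, clusters, fold, minimum level, thresholds and the 10 richest cells. Gene positions came from GENCODE vM21; promoter windows, 250 bases before to 50 after the start, from RefSeq. Python 3.11.15, numpy 2.4.6, scipy 1.17.1, pandas 2.3.3, scanpy 1.11.5, leidenalg 0.10.2 and matplotlib 3.10.9 were used.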

Additional observations from a re-analysis of the deposited data

Results flagged for a closer look

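Leaving out T cells, for 4 genes the ratio of motolimod to control lay beyond 1.5-fold in opposite directions in different gates, with each interval clear of 1; the difference between gates was not tested. Retnla had a ratio of 1.54 in MHC class II high macrophages, from 1 cell, and 0.0107 in monocytes, from 2 control cells. Chil3 had 2.41 in resident-like macrophages and 0.114 in neutrophils high in Ccl3 and Ccl4. Fn1 had 2.73 in other macrophages and 0.433 in lipid-laden macrophages. F13a1 had 2.14 in other macrophages and 0.324 in neutrophils high in Ccl3 and Ccl4, where its levels were below those of T cells.

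Barcodes that entered no gate held some members at levels over 1.5-fold above control and others below it. In the 563 ungated motolimod barcodes Retnla stood at 597 CPM against 40.6 in the 252 ungated control barcodes, Fn1 at 470.1 against 255, F13a1 at 153 against 65.7 and Chil3 at 25.7 against 16.6, while Ccl24 stood at 30.4 against 102, Ear2 at 14.7 against 31.5 and Fcna at 3.30 against 10.1. Ungated motolimod barcodes carried 32.5% of all Retnla UMIs of that library, and 5 of them held 1621 of its 1628 UMIs there. In the removed barcodes that carried more than 1 lineage, motolimod levels were 2131 CPM for Ccl6, 430.0 for Ccl9, 68.6 for Retnla, 37.9 for Chil3 and 234 for F13a1, against 1408, 175, 44.3, 20.6 and 142 in control. Fcna was at 20.9 against 48.7 CPM there and Ear2 at 2.11 against 5.10.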

How the results depend on the processing

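Over all macrophage-gated cells, the 3 lower genes stayed at 3 under all 11 alternatives, with ratios under the 9 that change them of 0.203 to 0.380 for Ccl24, 0.100 to 0.337 for Ear2 and 0.368 to 0.433 for Fcna. The count of higher genes stayed at 1 except with the control mix of gates, where it was 0. Of 592 alternative ratios across genes and gates, 367 stayed within the counting interval, and the rest moved beyond it. In all, 44 lay on the other side of 1, 7 of them for ratios called past 1.5-fold and 37 for the others, among them Ccl6, Chil3, Fn1 and F13a1 over all macrophages with the control mix of gates; the cause was not tested. Those 7 were Retnla in MHC class II high macrophages with thinned cells (0.977), a stricter cell filter (0.0159) and higher gate thresholds (0.0178), Fn1 in neutrophils high in Ccl3 and Ccl4 with mixed droplets kept (0.593) and higher thresholds (0.680), Ccl24 in other neutrophils with mixed droplets kept (0.863) and Chil3 in T cells with thinned cells (1.34). Higher thresholds and the 10 richest cells left out were chosen after seeing the data. No paired analysis was possible because each group has 1 library. Median depth was 14055 UMIs per control and 3742 per motolimod cell, and genes below 5 CPM in both libraries were not compared.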
